A study of Mus musculus with 56 samples.

Results

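The cytochrome P450 genes of families 2, 3 and 4 were described across 3 tissues of mice given the polycyclic aromatic hydrocarbon chrysene. Members were all genes whose symbol begins with Cyp2, Cyp3 or Cyp4 followed by a letter and a number, with pseudogenes left out, and genes were named by matching the RefSeq accession of each array probe to its symbol. This gave 72 members on 92 probes, out of 20018 named genes and 55681 probes, made up of 44 Cyp2, 8 Cyp3 and 20 Cyp4 genes. Of the genes that fit the rule, 5 protein-coding ones (Cyp2a5, Cyp2c40, Cyp2c69, Cyp2j12 and Cyp3a41a) had no probe matched by accession and were not analysed here.

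Adult male MutaMouse, a transgenic strain that carries a bacterial reporter gene in every cell, were about 14 weeks old and were gavaged daily for 28 days. The D0 mice received the olive oil vehicle alone, and the D1, D2 and D3 mice received chrysene in that oil at 17.5, 50 and 150 mg per kg body weight per day. Lung, liver and forestomach were taken from the same mice 72 hours after the last dose. Lung had 5, 5, 3 and 5 mice from D0 to D3, and liver and forestomach each had 5, 5, 4 and 5, for 56 arrays in all. On each array the tissue RNA carried Cy5 and Universal Mouse Reference RNA, a commercial mixture of RNA, carried Cy3, with no dye swap, so every level below is a log2 ratio of sample to reference for 1 probe, and levels of different genes were not set against each other.

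P450 enzymes are haem proteins of the endoplasmic reticulum that insert an oxygen atom into lipophilic molecules, using electrons that reach them mainly through P450 reductase (Por). Families 2 and 3 handle many drugs, steroids and arachidonic acid, and family 4 mainly hydroxylates fatty acids, leukotrienes and related lipids. In liver their transcription is governed by nuclear receptors such as Hnf4a, Nr1i3 (the constitutive androstane receptor, CAR), Nr1i2 (the pregnane X receptor, PXR) and Ppara, and several mouse genes of these families differ between males and females. Polycyclic aromatic hydrocarbons act on the aryl hydrocarbon receptor, whose best known P450 targets belong to family 1 and were not among the genes described here.

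Detection separated the tissues before any dose was considered. To be tested in a tissue, a member needed at least 3 of its arrays to show Cy5 well above background, which held for 60 of 72 members in liver, 41 in forestomach and 36 in lung. On every array of the tissue, 52 members were detected in liver, 23 in lung and 5 in forestomach. Only 4 members, Cyp2f2, Cyp2j6, Cyp2j9 and Cyp2s1, were well above background on all 56 arrays. Another 6 (Cyp2a22, Cyp2b23, Cyp2w1, Cyp4a29, Cyp4f37 and Cyp4x1) were well above background on none, and no member was saturated. The share of all probes well above background was 49 to 56.7% over the lung arrays, 34.5 to 46.4% over the liver arrays and 18.9 to 51.7% over the forestomach arrays, so the number of members detected on every forestomach array was set partly by its dimmest arrays.

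The labelled tissues were checked against marker genes. The mean log2 ratio of 8 hepatocyte genes was 6.5 to 6.86 over the liver arrays and 0.104 to 1.13 over the lung arrays. Alveolar type 2 genes stood at 5.39 to 5.88 in lung, and keratinocyte genes at 3.51 to 5.76 in forestomach. Markers of other tissues were also present. In lung, skeletal muscle genes stood at 6.10 and 5.83 and keratinocyte genes at 3.88 and 4.37 on the arrays of D3 mice 17 and 19, against at most -0.20 and -0.22 on the other 16 lung arrays. In forestomach, the mean of 10 glandular stomach genes was 0.242 to 2.11 on 9 arrays and 5.29 to 6.91 on the other 10. The 10 arrays were those of 3 of 5 D0, 2 of 5 D1, 4 of 4 D2 and 1 of 5 D3 mice. Each slide held a single tissue, so slide and tissue cannot be told apart, and in bulk tissue fewer cells of a type and less RNA per cell cannot be told apart.

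**Figure D1:**
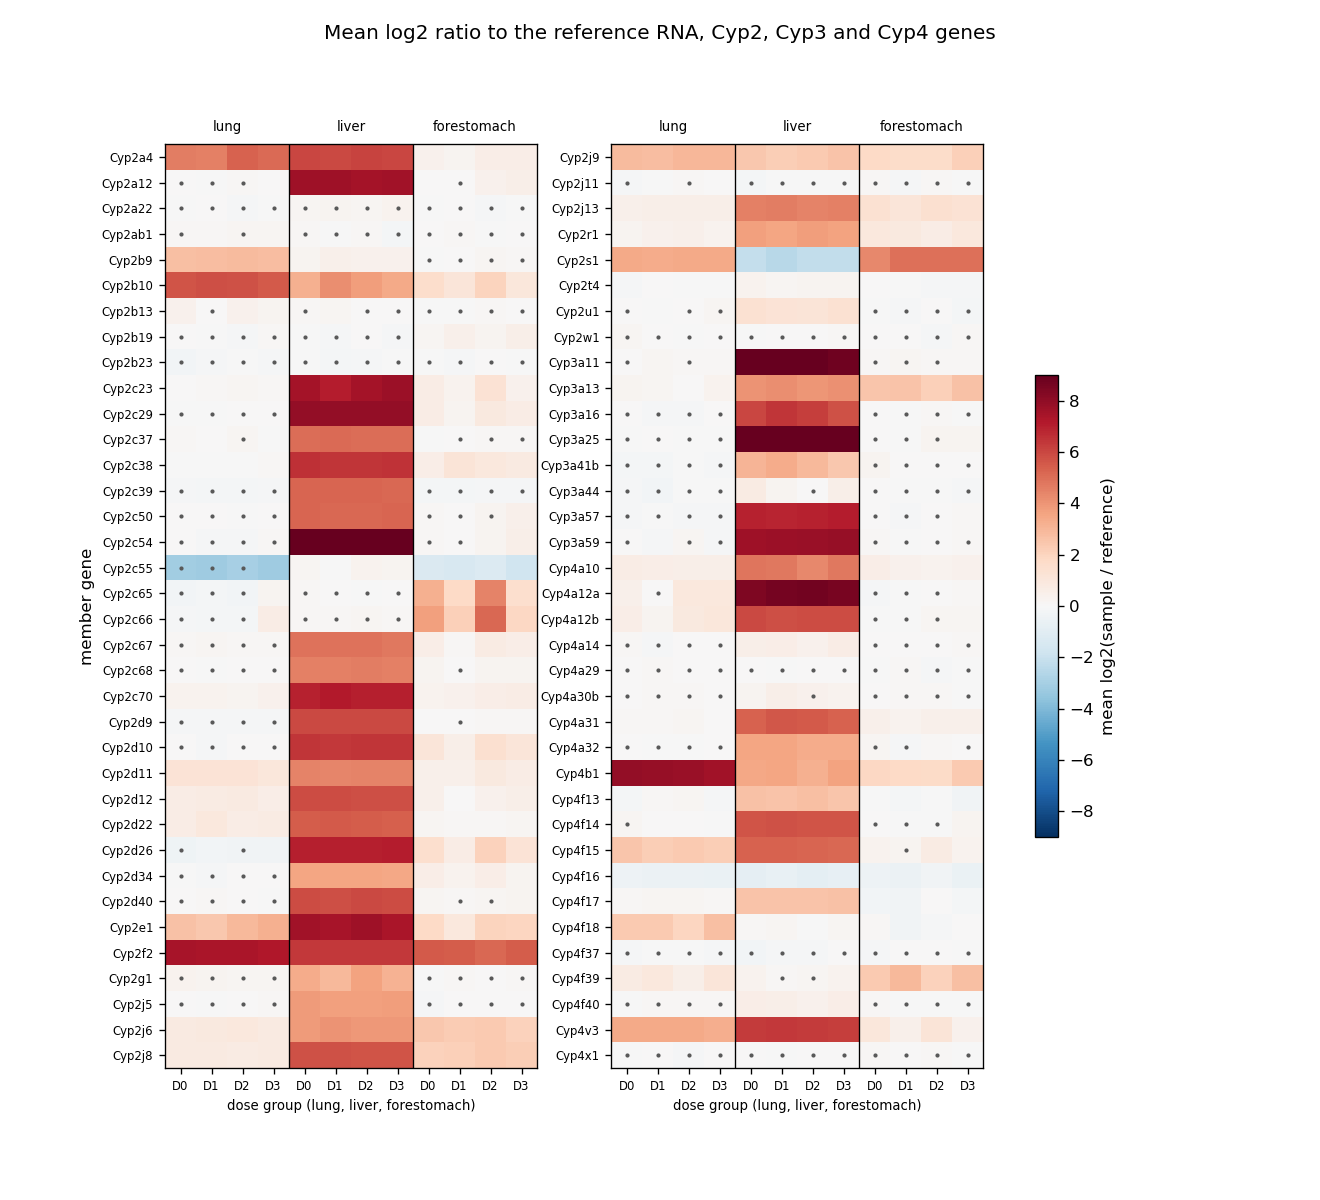
Mean log2 ratio of sample to reference RNA for each of the 72 members (rows, in 2 panels) in the 4 dose groups of lung, liver and forestomach (columns, 3 to 5 mice each). Red is above and blue below the reference, and a dot marks a group in which no array was well above background. Levels change between tissues far more than between the doses within a tissue, and 6 members carry a dot in every column.

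The members' promoters are shown first because many members differed together between tissues. The 250 bases upstream of the transcription start were read from RefSeq (GRCm38.p6) for 65 promoters of 58 members and searched on both strands. The letters CAAAGTCCA, a core of sites bound by the liver factor HNF4, were found in 7 member promoters, which is 10.8% of them, against 0.384% of all 32851 promoters. All 7 belonged to the Cyp2c and Cyp3a subfamilies. The match is in capitals in the 29 bases around it, each printed along its gene's strand.
Cyp2c65: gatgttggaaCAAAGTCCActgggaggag
Cyp2c67: atcattgagaCAAAGTCCAtttggaagca
Cyp2c68: atcattgaaaCAAAGTCCAattggaagag
Cyp2c70: aggtcaaactCAAAGTCCAaactctgtgt
Cyp3a11: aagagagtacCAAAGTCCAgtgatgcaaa
Cyp3a16: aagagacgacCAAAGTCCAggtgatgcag
Cyp3a41b: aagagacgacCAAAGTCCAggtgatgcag
These lie on chromosome 19 at chr19:39060880-39060908 (plus strand) for Cyp2c65, chr19:39649149-39649177 (minus) for Cyp2c67, chr19:39741160-39741188 (minus) for Cyp2c68 and chr19:40187332-40187360 (minus) for Cyp2c70. On chromosome 5, all on the minus strand, they lie at chr5:145879945-145879973 for Cyp3a11, chr5:145469804-145469832 for Cyp3a16 and chr5:145584807-145584835 for Cyp3a41b. The printed stretches of Cyp3a16 and Cyp3a41b are the same, and their 250 upstream bases share an unbroken run of 67, while those of Cyp3a11 and Cyp3a16 share a run of 36. Neighbouring genes of a subfamily such as Cyp2c67 and Cyp2c68 have similar stretches too, so the 7 promoters are not 7 separate instances. A match is a description of letters and not of a bound site.

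The letters TTATGCAA, a core of sites bound by the C/EBP and DBP families of bZIP factors, were found in 7.69% of member promoters against 0.694% of all promoters. The 5 genes were Cyp2a4, Cyp2b10, Cyp2b19, Cyp2b23 and Cyp4f14. The upstream bases of Cyp2a4 (chr7:26306942-26307191, plus strand) and Cyp2b10 (chr7:25897408-25897657, plus strand) are printed because both were detected on every lung and liver array. The match, here read on the opposite strand, is in capitals.
Cyp2a4: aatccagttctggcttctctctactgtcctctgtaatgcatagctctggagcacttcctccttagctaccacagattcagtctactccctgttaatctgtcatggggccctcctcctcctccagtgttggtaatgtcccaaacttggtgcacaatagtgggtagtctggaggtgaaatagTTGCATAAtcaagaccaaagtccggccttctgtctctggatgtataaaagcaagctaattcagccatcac
Cyp2b10: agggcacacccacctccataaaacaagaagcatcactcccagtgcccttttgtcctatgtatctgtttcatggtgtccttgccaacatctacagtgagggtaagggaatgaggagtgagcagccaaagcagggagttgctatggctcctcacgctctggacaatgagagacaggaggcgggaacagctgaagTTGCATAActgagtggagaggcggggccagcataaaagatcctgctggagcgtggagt
The pair Cyp2c65 (chr19:39060756-39061005, plus strand) and Cyp2c66 (chr19:39113648-39113897, plus strand) is printed because both were high on the same forestomach arrays, as given below. Capitals mark the CAAAGTCCA match in Cyp2c65.
Cyp2c65: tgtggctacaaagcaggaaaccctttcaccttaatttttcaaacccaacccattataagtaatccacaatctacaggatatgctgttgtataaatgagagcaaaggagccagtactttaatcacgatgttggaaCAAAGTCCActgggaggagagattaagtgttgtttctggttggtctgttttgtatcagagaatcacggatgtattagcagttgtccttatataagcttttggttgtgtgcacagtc
Cyp2c66: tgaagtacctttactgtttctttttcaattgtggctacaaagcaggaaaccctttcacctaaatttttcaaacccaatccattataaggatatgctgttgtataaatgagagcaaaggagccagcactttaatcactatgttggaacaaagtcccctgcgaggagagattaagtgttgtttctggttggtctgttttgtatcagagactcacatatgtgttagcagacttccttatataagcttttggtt
Their upstream bases share an unbroken run of 48, and the Cyp2c66 stretch holds no match to the 9 letters. The TATA box letters TATAAA were found in 33.8% of member promoters and 12.4% of all. GCGTG, the core of the aryl hydrocarbon receptor's response element, was found in 16.9% of member promoters and 28.2% of all, and its 10 member genes included Cyp2b10, Cyp4f39 and Cyp4v3. TGACCTTTG, part of a direct-repeat element of nuclear receptors, was found in 6.15% of member promoters (Cyp3a25, Cyp3a57 and Cyp3a59) and in 0.426% of all. As genes of the same subfamily these may not be separate instances, nor may Cyp2b10, Cyp2b19 and Cyp2b23 with TTATGCAA.

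The first comparison asked in which tissue of the vehicle-treated mice each member was highest. Liver held most of them. Of 61 members tested between liver and lung, 48 were higher in liver (78.7%) and 6 lower (9.84%), against 21.1% and 24.9% of all probes tested. Of 63 tested between liver and forestomach, 50 were higher in liver (79.4%) and 4 lower (6.35%), against 19% and 22% of all probes. The median log2 difference over the members was 4.07 against lung and 4.00 against forestomach, where the median over all probes was -0.0272 and -0.0395. For 31 and 25 of these members 1 tissue was not above background, and with those set at their lower bounds the medians were 2.89 and 3.01. They made up 28 of the calls against lung and 20 of those against forestomach. For some called higher in liver the lower bound was under 1.5-fold. These were Cyp3a44 (0.995 against lung and 0.968 against forestomach), Cyp2u1 (1.29 and 1.41) and Cyp4f40 (1.01 against lung). A call needed an adjusted p of at most 0.05 and a difference of at least 1.5-fold in limma, fitted over all 56 arrays. At a difference of at least 4-fold, 44 members were higher in liver than in lung (5.04% of all probes) and 42 higher than in forestomach (5.14%). Among them the lower bound against lung was under 4-fold for Cyp2c55 (2.20), Cyp2d34 (2.90), Cyp2g1 (2.60), Cyp3a41b (3.11) and Cyp4a32 (2.04). Against forestomach it was under 4-fold for Cyp2g1 (2.81), Cyp3a41b (3.17) and Cyp4a32 (2.05).

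The Cyp3a genes, which oxidise steroids, bile acids and many drugs, were called higher in liver in 8 of 8 cases against either tissue. For Cyp3a44 the lower bounds were 0.995-fold against lung and 0.968-fold against forestomach, so they did not place it above either tissue. Cyp3a11, the main PXR-responsive enzyme of the subfamily, stood at 9.40, 8.60, 8.64, 9.61 and 9.34 in the livers of the 5 D0 mice. On its probe no lung or forestomach array of a D0 mouse was well above background, so the tissues did not overlap on it. A second Cyp3a11 probe was well above background on 3 lung arrays and 1 forestomach array, at mean log2 ratios of 0.10 in both tissues, and its mean over the 19 livers was 5.74, against 9.10 on the first probe. On the first probe liver was at least 95.6-fold above lung and at least 96.6-fold above forestomach. Cyp3a25 was at least 112-fold higher in liver than in lung and at least 122-fold higher than in forestomach, and for Cyp3a59 the bounds were 32.8-fold and 36.0-fold. These bounds set the liver signal against the dimmest signal called well above background, because the other tissue had only an upper limit, and each is the lowest of 3 bounds, on normalized Cy5, on Cy5 as scanned and on the scanned ratio of Cy5 to Cy3. Cyp3a13 was the exception in that forestomach also held it, with a D0 mean of 2.47 ± 1.34 (SD, n = 5) there and 4.07 ± 0.65 in liver, while that probe was not well above background in D0 lung. A second Cyp3a13 probe was well above background on all 18 lung arrays, at a mean log2 ratio of 0.19, so the probes disagreed on its detection in lung.

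Among the Cyp2c genes, which form epoxides from arachidonic acid and metabolise many drugs, 11 of 11 tested were higher in liver than in lung. Cyp2c29 stood at 7.90 ± 0.11 (SD, n = 5) in D0 liver and was at least 54.4-fold above lung. Cyp2c54 was at least 94.2-fold above lung and at least 101-fold above forestomach. Against forestomach 11 of 13 were higher in liver, and the other two, Cyp2c65 and Cyp2c66, were at least 4.82-fold and 7.04-fold lower in liver, where no D0 array was well above background for either (adjusted p of 0.001 and 0.00207). The Cyp2c65 level in the 5 D0 forestomachs was 0.43, 5.86, 4.90, 0.09 and 4.76, so the mean joined 2 mice at the level of the reference with 3 far above it.

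All 8 Cyp2d members, relatives of the human debrisoquine hydroxylase, were higher in liver against both other tissues. The 3 that were detected in D0 lung were higher in liver by 3.17 (Cyp2d11), 4.75 (Cyp2d22) and 5.24 (Cyp2d12) on the log2 ratio, and the other 5 had lower bounds of 2.90-fold (Cyp2d34) to 39.2-fold (Cyp2d26). In forestomach each was well above background in 1 to 3 of the 5 D0 mice. Cyp2d9, a steroid 16-alpha hydroxylase that is predominant in males, stood at 5.91 ± 0.06 in D0 liver and was at least 14.4-fold above lung. Cyp2a12, a testosterone hydroxylase, was at least 40.7-fold above lung. Cyp2e1, which oxidises ethanol, acetone and nitrosamines, stood at 7.53 ± 0.62 in liver, 2.61 ± 0.16 in lung and 1.80 ± 1.89 in forestomach, and lung and forestomach did not differ by the test (0.81 ± 0.54 SE, adjusted p = 0.193).

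Of 7 Cyp4a members tested, which hydroxylate fatty acids at the omega end and include targets of PPAR alpha, 5 were higher in liver than in lung and 5 than in forestomach. Cyp4a12a, the male-predominant arachidonate omega-hydroxylase, stood at 8.42 ± 0.17 in D0 liver and was at least 63.9-fold above forestomach. In lung it was well above background in 2 of 5 D0 mice, and its probe may also read its near copy Cyp4a12b. Cyp4a10 stood at 4.82 ± 0.31 in liver against 0.64 ± 0.28 in lung and 0.63 ± 0.47 in forestomach. Cyp4a14 was well above background in 2 of 5 D0 livers and in no D0 lung or forestomach, with a liver mean of 0.52 ± 0.31, and it was not called in either comparison. Of the genes known to be predominant in female liver, Cyp3a16 and Cyp3a41b were detected in all 5 of these male livers, Cyp3a44 in 4 and Cyp2b9 in 1. Cyp2a4, also among them, was detected on all 19 liver arrays, and Cyp2b13 on too few to be tested there. The probes of these Cyp3a genes may share signal with their close relative Cyp3a11.

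A small set of members was highest in lung. Cyp4b1, which bioactivates 4-ipomeanol and other furans, stood at 7.94, 8.32, 8.08, 7.88 and 7.25 in the lungs of the D0 mice, with a mean of 3.47 ± 0.56 in liver and 1.85 ± 1.41 in forestomach. The lung values lay above every liver and forestomach value of that gene in D0 mice, and lung exceeded forestomach by 6.05 ± 0.42 (SE) and liver by 4.42 ± 0.42. Cyp2f2, the naphthalene-activating enzyme of club cells, stood at 7.39 ± 0.30 in lung, 6.38 ± 0.15 in liver and 5.49 ± 0.27 in forestomach, although its difference between liver and lung was not called with median centring (-1.52, adjusted p = 0.0657). Cyp2b10, the best known CAR target, stood at 5.69 ± 0.38 in lung, 3.21 ± 1.10 in liver and 1.59 ± 1.44 in forestomach, and Cyp2b9, its relative, at 2.69 ± 0.33 in lung. Cyp4v3, a fatty acid hydroxylase, was higher in lung than in forestomach by 2.38 ± 0.31 (SE) but stood highest in liver, at 6.27 ± 0.08 (SD). Cyp4f18, a leukotriene B4 hydroxylase of myeloid cells, was higher in lung by 2.31 ± 0.24 against liver and 2.25 ± 0.24 against forestomach. Cyp2a4, a steroid 15-alpha hydroxylase whose probe may also read its near copy Cyp2a5, was higher in liver than in lung by 1.43 ± 0.28 and higher in lung than in forestomach by 4.21 ± 0.28. In forestomach it was well above background on 6 of 19 arrays and stood at -0.12, 1.48, 0.25, 0.05 and 0.22 in D0. The difference from lung was thus set against a mostly undetected level.

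Cyp2s1, an epithelial P450 known to respond to the aryl hydrocarbon receptor, was highest in forestomach and lowest in liver. It stood at 4.24, 4.59, 4.81, 3.07 and 5.03 in D0 forestomach, at 3.42 ± 0.15 in lung and at -2.16 ± 0.47 in liver. Forestomach exceeded liver by 6.51 ± 0.21 (SE) and lung by 0.92 ± 0.21 (adjusted p = 0.000143), although the forestomach of mouse 4 lay below the lung mean. Cyp4f39, a very long chain fatty acid hydroxylase of the skin barrier, was higher in forestomach than in liver by 2.07 ± 0.41 and than in lung by 1.63 ± 0.41, but neither was called with median centring (liver -1.09 and lung -0.71 against forestomach). Cyp2b19, an arachidonate epoxygenase of keratinocytes, was well above background in 1 of 5 D0 forestomachs and was not called.

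Cyp2c55, an epoxygenase of the gut, was below the reference in forestomach (-1.33 ± 1.03, 2 of 5 D0 mice well above background) and not above background in lung. It was called higher in forestomach (adjusted p = 1.02e-05), but with median centring the call ended (difference of lung from forestomach -0.14) and no lower bound above 1-fold could be given.

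Between lung and forestomach, 11 of 46 members were higher in lung (23.9%, against 19.3% of all probes) and 14 lower (30.4%, against 18.3%). The lower count was 7 with median centring, 6 with probes detected on every array and 9 with array weights. It fell to 8 without mouse 2 and to 9 without mouse 5, whose forestomachs both held glandular stomach genes (6.83 and 5.60). The forestomach of mouse 3 held them too (5.89). Adipocyte genes stood at 5.14 and 4.89 in the forestomachs of mice 2 and 5 and at 0.03 to 0.10 in those of mice 1, 3 and 4. The part of either list in the count was not tested. Cyp2d26 was highest on the arrays of mice 2 and 5, at -0.08, 3.84, 1.36, -0.10 and 2.41 in the 5 D0 forestomachs. The hepatocyte list stood at 2.78, 1.84 and 1.81 on the arrays of mice 2, 3 and 5 and at -0.01 and 0.22 on those of mice 1 and 4, and the part of these cells in the difference was not tested.

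**Figure D2:**
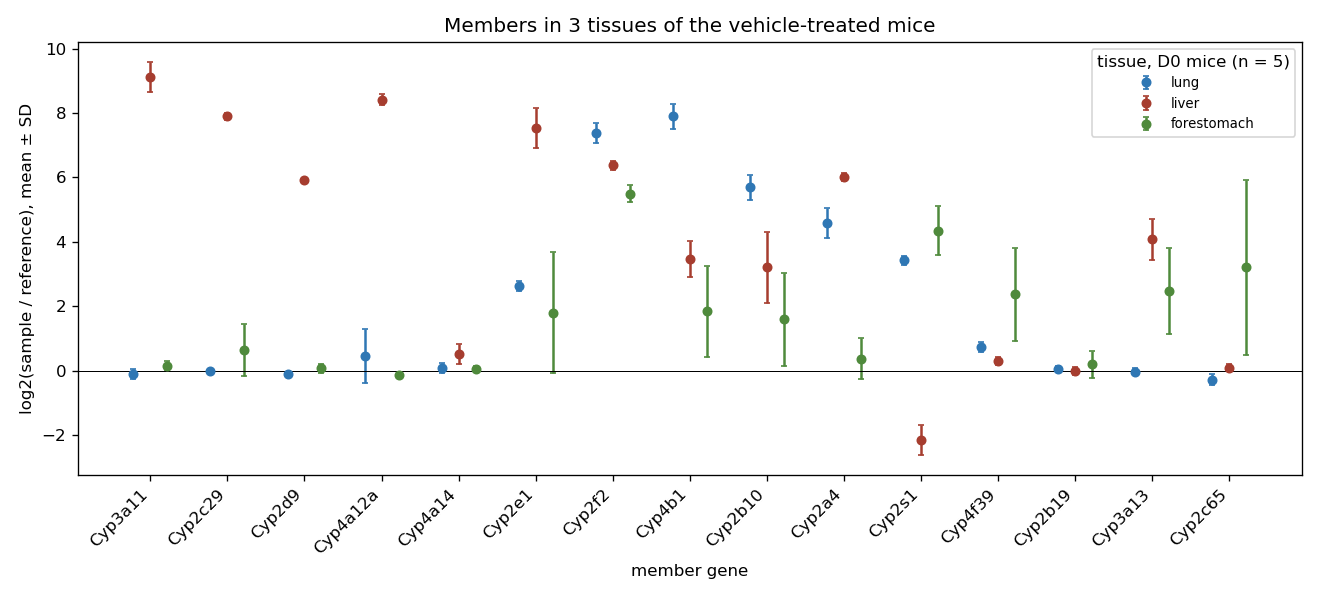
Log2 ratio of sample to reference (vertical axis) for 15 members in lung, liver and forestomach of the 5 vehicle-treated (D0) mice. Points are means and bars are SD. Cyp3a11, Cyp2c29, Cyp2d9 and Cyp4a12a had means of at most 0.64 outside liver, Cyp4b1 and Cyp2b10 were highest in lung, and Cyp2s1 was below 0 in liver only.

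The reference channel bore on the size of these differences. For 11 members (Cyp2a12, Cyp2c29, Cyp2c39, Cyp2c50, Cyp2c54, Cyp2c68, Cyp2d9, Cyp3a57, Cyp4a12a, Cyp4a32 and Cyp4f15) the Cy3 signal of the common reference was well above background on all 19 liver arrays and on no lung or forestomach array. The mean Cy3 signal of Cyp2c50 was 2524 on liver arrays, 41.8 on lung arrays and 41.4 on forestomach arrays, although the reference was labelled as the same RNA throughout. The mean Cy5 signal of Cyp2c50 on the same arrays was 37111 in liver and 72.0 in lung, and between D0 groups liver was at least 7.41-fold above lung, the lowest of its 3 bounds. Cyp2b10 was lower in liver than in lung by 2.48 on the ratio and by 6.02 on Cy5 alone. On Cy5 alone no called difference between tissues changed sign, while 3 that were not called did (Cyp2a12 and Cyp4f14 between lung and forestomach, Cyp2t4 between liver and forestomach), and the cause of the Cy3 difference was not tested.

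Genes that work with the P450s also differed by tissue. Of 15 genes for electron transfer and haem synthesis or breakdown, 11 were higher in liver than in lung and 3 lower, and 12 were higher than in forestomach and 2 lower (of all probes 21.1% were higher and 24.9% lower against lung, and 19% and 22% against forestomach). Cpox, a haem synthesis enzyme, was higher in liver than in lung by 3.48 ± 0.14 (SE), and Cyb5a, the cytochrome b5 that passes electrons to P450s, by 1.88 ± 0.12. Por was lower in liver than in lung by 1.51 ± 0.16, and Alas1, which makes the first committed haem precursor, by 2.03 ± 0.41. Of 12 regulators tested, 9 were higher in liver than in lung and 1, Tef, was lower. Nr1i3 was higher by 5.40 ± 0.12, Hnf4a by 4.51 ± 0.68 and Nr1i2 by 3.44 ± 0.31.

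The second comparison asked whether any member changed with chrysene. In no tissue did a member pass the limits at any dose or in the trend over doses, with 36 tested in lung, 60 in liver and 41 in forestomach. At D3 the share of all probes called was 0.127% in lung, 0% in liver and 0.00727% in forestomach, and for the dose trend it was 0.168%, 0% and 0.04%. At D1 and D2 it was 0% in every tissue. By the adjusted p alone, with no fold limit, 0 members were called as well, where 0.34% of all probes were at D3 and 0.686% in the trend in lung, and 0.00727% and 0.0545% in forestomach. By limma's unadjusted p, with a limit of 0.05, 3, 1 and 2 lung members differed at D1, D2 and D3 (8.33, 2.78 and 5.56%, against 5.88, 6.12 and 16.2% of all probes). In liver 2, 1 and 0 did (3.33, 1.67 and 0%, against 3.61, 3.79 and 4.8%), and in forestomach 2, 1 and 2 (4.88, 2.44 and 4.88%, against 4.17, 7.53 and 9.24%). At D3 the unadjusted share was thus lower among the members than over all probes in each tissue, with no test of that difference. For the dose trend 2 members had such a p in lung, 0 in liver and 3 in forestomach, against 17.3, 5.42 and 9.18% of all probes.

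Differences were also counted by size alone. A difference of at least 1.5-fold, whatever its p, was seen for 5, 5 and 4 forestomach members at D1, D2 and D3. These were 12.2, 12.2 and 9.76%, against 2.77, 4.07 and 5.69% of all probes. In the forestomach trend it was seen for 2 (4.88%, against 3.74% of all probes). In lung it was seen for 0, 1 and 0 members (0, 2.78 and 0%, against 0.359, 0.749 and 2.82% of all probes). For the lung trend the count was 3 (8.33%, against 2.75%). In liver it was seen for 1 member at each dose (1.67%, against 0.44, 0.505 and 0.509%) and 1 in the trend (1.67%, against 0.476%). These shares were not tested between tissues. Treated and D0 mice did not overlap for 1, 1 and 0 lung members (1.41, 5.29 and 2.61% of all probes), for 0 liver members (0.501, 1.25 and 0.739%) and for 0, 0 and 1 forestomach members (0.719, 2.18 and 1.39%).

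The precision of these differences was uneven. The median 95% interval of a D3 difference reached 1.19-fold to either side in lung, 1.18-fold in liver and 1.58-fold in forestomach. Intervals lay wholly inside a 2-fold change for 32 of 36 members in lung, 54 of 60 in liver and 22 of 41 in forestomach. For Cyp2c29 in liver the interval ran from -0.12 to 0.16, for Cyp2f2 in lung from -0.56 to 0.18 and for Cyp4f13 in liver from -0.24 to 0.04 on the log2 scale. For Cyp2b10 in liver it ran from -1.08 to 1.51, which leaves a 2-fold change in either direction within the interval.

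In lung the member with the largest D3 difference was Cyp2e1. Its level in the 5 D0 lungs was 2.88, 2.54, 2.62, 2.49 and 2.54, and in the 5 D3 lungs 2.85, 4.00, 2.71, 3.57 and 2.86. Mice 17 and 19 of D3 stood above every other lung, while the other 3 D3 lungs overlapped with D0. The D3 difference was 0.58 ± 0.20 (SE, adjusted p = 0.193), and the fitted change over the dose steps was 0.67 (adjusted p = 0.118). Without mice 17 and 19, whose arrays carried skeletal muscle and keratinocyte genes, the D3 difference was 0.19. Adipocyte genes stood at 4.62 and 4.37 on the same arrays and at 0.62 to 4.19 on the other lung arrays, and the part of these cells in the difference was not tested. A second Cyp2e1 probe gave 0.585. Within the 3 lung slides the difference was 1.29, 0.65 and 0.27.

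The next lung members were Cyp2a4 (0.53 ± 0.34), Cyp4a12a (0.48 ± 0.44) and its near copy Cyp4a12b (0.40), none of which was called. Cyp4a12a stood at -0.06, 0.10, -0.24, 0.65 and 1.81 in D0 lung and at 1.23, 2.50, 0.00, 0.78 and 0.13 in D3 lung, so high and low lungs occurred in both groups. Over all 18 lungs, the 7 with the highest Cyp4a12a (0.65 to 2.50) had adipocyte list means of 2.34 to 4.62, against at most 1.94 in the others. Their club cell list means were 6.56 to 7.52, against 5.53 to 6.59 in the others, and the part of either list was not tested. Without mouse 17 the Cyp4a12a difference was 0.08 and that of Cyp2a4 0.31. Within slides Cyp4a12a gave 2.48, -0.25 and -0.11, and Cyp2a4 likewise 1.79, -0.21 and 0.27.

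Cyp4f13, a fatty acid and leukotriene hydroxylase, was the lung member whose treated and vehicle groups did not overlap at D1 and D2. Its D0 lungs stood at -0.10, -0.31, -0.17, -0.17 and -0.27, its D1 lungs at -0.07, -0.09, 0.28, 0.20 and 0.23 and its D2 lungs at 0.19, 0.21 and 0.08. The difference was 0.31 ± 0.08 at D1 (adjusted p = 0.74) and 0.36 ± 0.09 at D2 (adjusted p = 0.57). At D3 the lungs stood at -0.11, -0.25, -0.07, -0.16 and 0.02, with an interval from -0.08 to 0.26, so the difference was not seen at the highest dose. In forestomach Cyp4f13 was the member whose D3 and D0 groups did not overlap, with a difference of -0.24 (adjusted p = 0.588). Cyp2d11 in lung had a D3 difference of -0.24 (adjusted p = 0.222).

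In liver the 4 largest D3 differences all belonged to Cyp3a members and all were negative, at -0.65 ± 0.48 (SE) for Cyp3a41b, -0.35 ± 0.27 for Cyp3a11, -0.29 ± 0.38 for Cyp3a16 and -0.26 ± 0.21 for Cyp3a44. None was called, with an adjusted p of 1.00 for each. Leaving out single mice moved the difference of Cyp3a41b from -1.01 (without mouse 20) to -0.41 (mouse 19), that of Cyp3a11 from -0.52 (mouse 20) to -0.19 (mouse 19) and that of Cyp3a16 from -0.53 (mouse 20) to -0.095 (mouse 4), while that of Cyp3a44 was near 0 without mouse 5. The other 4 Cyp3a members had positive differences, the largest of them 0.23 ± 0.19 for Cyp3a25 and 0.17 ± 0.16 for Cyp3a59, also not called. Cyp3a11 stood at 8.93, 8.97, 8.36, 8.12 and 9.46 in D3 liver and overlapped with D0. Cyp3a41b stood at 3.91, 2.07, 2.00, 3.45 and 4.01 in D0 and at 2.72, 2.23, 1.85, 1.48 and 3.88 in D3, again with overlap. These probes may share signal, since Cyp3a11, Cyp3a16, Cyp3a41b and Cyp3a44 are close relatives. Within the 3 liver slides the Cyp3a11 difference was 0.35, -0.88 and 0.09.

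Cyp3a44 also had the smallest unadjusted p of any liver member at D1 and at D2, with differences of -0.52 ± 0.21 and -0.69 ± 0.23 (adjusted p of 1.00 and 0.998). Its D0 livers stood at 0.54, 0.15, 0.73, 0.55 and 1.80 and its D2 livers at 0.03, 0.16, 0.07 and -0.01. Mouse 5 of D0 was the highest of all, and without it the D3 difference was 0.00047.

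In forestomach the largest D3 differences were those of Cyp2c66 (-1.81 ± 1.64) and Cyp2c65 (-1.69 ± 1.33). Cyp2c65 stood at 0.17, 0.37, 0.79, 5.77 and 0.48 in the D3 forestomachs, against the D0 values given above, and at 4.38, 6.16, 3.73 and 3.45 in the 4 D2 forestomachs. Cyp2c66 stood at 0.28, 7.06, 5.70, -0.15 and 5.61 in D0 and at 0.19, 0.18, 0.98, 7.13 and 0.97 in D3. Both genes were thus near 0 or far above it in single mice. Over the 19 forestomachs Cyp2c65 was 3.45 to 6.16 on the 10 arrays with high glandular stomach genes and -0.15 to 0.79 on the other 9, and Cyp2c66 was 4.10 to 7.56 and -0.15 to 0.98. Without mouse 19, the one D3 mouse on the high side, the Cyp2c65 difference was -2.76. Without mouse 2 of D0 it was -1.03. The part of glandular stomach cells in these differences was not tested.

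Cyp4v3 had a D3 difference of -0.65 ± 0.49 in forestomach and was likewise highest on arrays of mice 2 (2.40) and 12 (2.94), both high in glandular genes. Without mouse 2 the Cyp4v3 difference was -0.31. Cyp2s1 had positive differences at all 3 doses, of 0.58, 0.61 and 0.63 (adjusted p = 1, 0.618 and 0.406). It stood at 4.78, 5.04, 4.97, 5.10 and 5.00 in D3 forestomach and overlapped with D0, where mouse 4 at 3.07 was the lowest of all 19 forestomachs. Without mouse 4 the D3 difference was 0.31 ± 0.14, and within slides it was 0.67, 1.03 and 0.24. Cyp2a12 had a D3 difference of 0.50 (adjusted p = 0.401) at levels near the reference, from 0.09 to 1.32 in D3 and from -0.13 to 0.35 in D0. The highest D3 values were those of mouse 19 (0.80) and mouse 20 (1.32), whose hepatocyte list means were 2.75 and 2.52 against 0.61 to 0.79 on the other D3 arrays, and the highest in D0 was that of mouse 2, whose mean was 2.78. The part of that list in the difference was not tested.

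**Figure D3:**
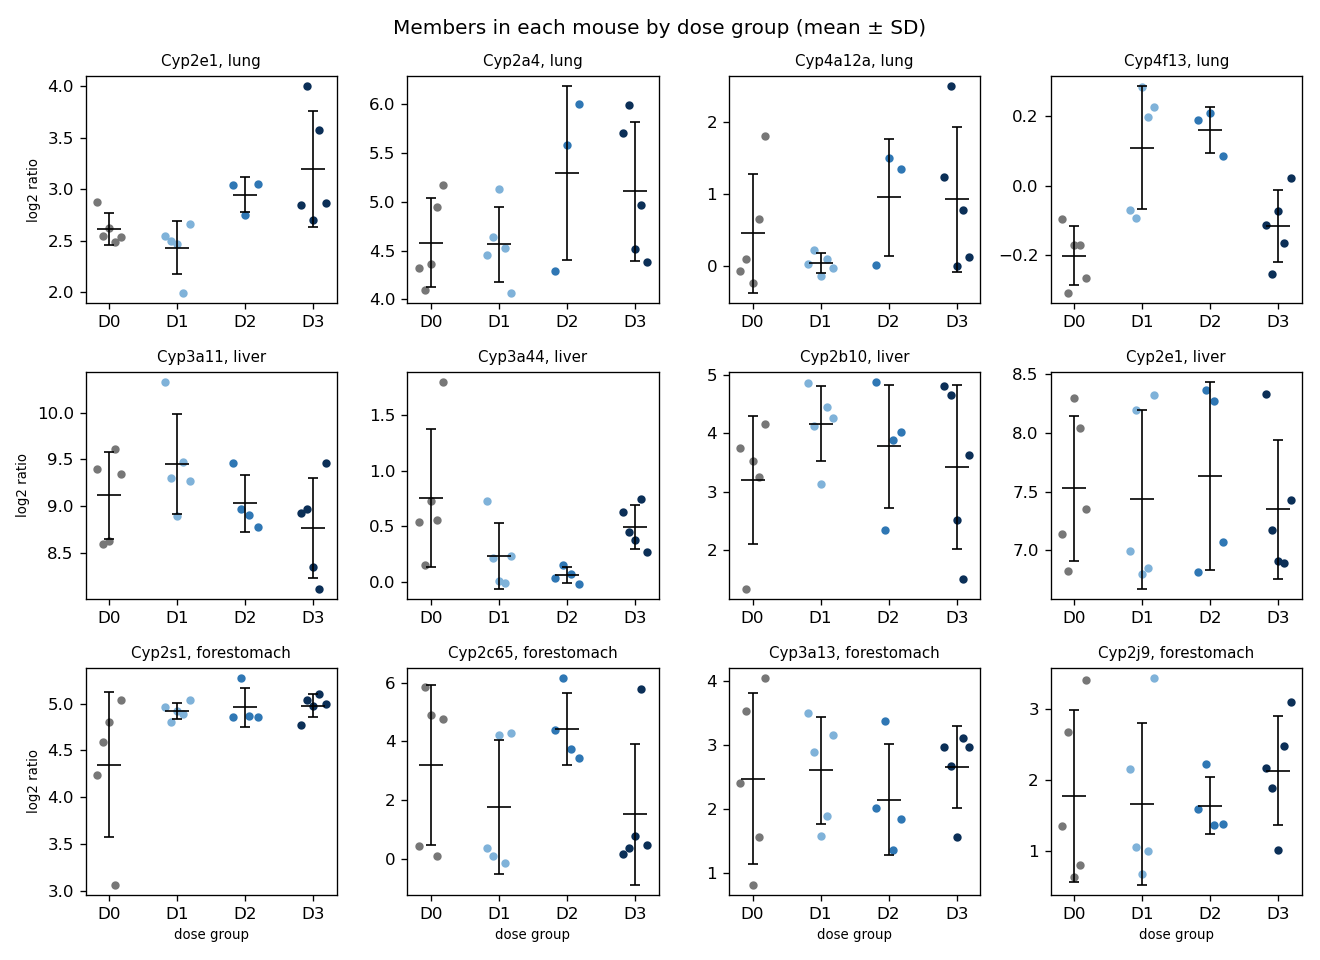
Log2 ratio in each mouse (points) by dose group, with mean and SD (bars), for 12 members in the tissue named above each panel. High and low mice occur within single dose groups, as for Cyp2c65 in forestomach and Cyp2b10 in liver, and lung Cyp2e1 is highest in mice 17 and 19 of D3.

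Grouped by known regulation, the members gave 0 calls in limma at D3 in every list. Of 9 CAR and PXR responsive genes tested in liver, 3 had a negative D3 difference and the median was 0.05 (all probes -0.01). Of 4 PPAR alpha responsive genes in liver, 3 were negative with a median of -0.06. The 3 male-predominant genes had a median of 0.01, and the 6 tested female-predominant genes -0.14, with 4 negative. In lung the 5 airway genes had a median of -0.16 (all probes -0.03). In forestomach the 2 squamous genes, Cyp2b19 and Cyp4f39, were both positive, with a median of 0.37. Of 19 arachidonate epoxygenases (all Cyp2c and Cyp2j), 16 were tested in liver with a median of 0.01. The 8 Cyp4f genes tested in liver had a median near 0 (-0.004).

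No gene of the partner and regulator lists was called at any dose. Dbp, a clock-controlled bZIP factor, had D3 differences of 1.24 in lung, 1.59 in liver and 0.86 in forestomach (adjusted p = 0.287, 1.00 and 0.505). When the D3 difference itself was compared between tissues, 0 members were called of 61 between liver and lung, 63 between liver and forestomach and 46 between lung and forestomach (0%, 0.0806% and 0.765% of all probes). The smallest adjusted p was 1.00, 0.321 and 0.184, and 0, 3 and 4 members had an unadjusted p of at most 0.05.

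The members varied between mice of the same dose group. Over those detected on every array, the median SD within groups was 0.251 in lung (23 members), 0.177 in liver (52) and 0.947 in forestomach (5), where the medians over all probes detected on every array were 0.16, 0.148 and 0.292. Cyp2b10 had the widest spread in liver (SD 1.09). It stood at 3.75, 1.33, 3.53, 3.25 and 4.17 in D0 liver and at 4.81, 4.66, 2.52, 1.4996 and 3.63 in D3 liver, so single mice in both groups were low. The spread of Cyp2b10 was as wide on Cy5 alone (1.34).

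Cyp2e1 in liver was different. Its ratio fell into 2 bands, at 8.04 to 8.37 on 7 arrays and 6.80 to 7.43 on the other 12, with a within-group SD of 0.69. The bands followed the reference, whose Cy3 signal was 1290 to 2191 on the 7 arrays and 3268 to 6231 on the 12, while the SD of Cy5 alone was 0.18 and that of Cy3 was 0.94. A second Cyp2e1 probe showed no such bands and ran from 7.58 to 8.48. Next in liver were Cyp3a41b (SD 0.84) and Cyp2c23 (0.68). For Cyp2c23, D1 mouse 8 stood at 4.91, where the rest of its group stood at 7.37 to 7.74. In forestomach, Cyp3a13 (SD 0.96), Cyp2j9 (0.96) and Cyp2j6 (0.95) were the most variable members detected on every array, followed by Cyp2s1 (0.42). With median centring of the scanned ratios Cyp2s1 had the widest spread of the 4 (1.93, against 0.92 to 1.33). In lung they were Cyp2a4 (0.60, and 1.02 on Cy5 alone), Cyp4f39 (0.38), Cyp2b10 (0.36) and Cyp2e1 (0.35).

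Members were also related to a marker over mice, as deviations from dose group means, for 85 relations with Benjamini-Hochberg adjustment over all of them. In lung, Cyp2a4 followed the club cell list (3 genes measured: n = 18, r = 0.875, rho = 0.874), with a permutation p of 1e-05 for either, the smallest that 100000 permutations can give, and an adjusted p of 0.00085. Without the 2 mice farthest from the median r was 0.862, and within the 3 slides it was 0.867, 0.776 and 0.946. The relation of Cyp2f2, itself a club cell enzyme, was r = 0.599 (rho = 0.513, adjusted p = 0.0853, permutation test) and that of Cyp2s1 r = 0.64 (rho = 0.552, adjusted p = 0.0628). Cyp2b10 had r = 0.504 (rho = 0.393, adjusted p = 0.225). Cyp4v3 ran the other way with r = -0.603 (rho = -0.562, adjusted p = 0.0853, permutation test). Only Cyp2a4 was called of the 23 lung members tested, and 0.0444% of the 24752 probes well above background on every lung array had an r of that size or more. Of the 23 members 8 had a positive r, and the median was -0.328, beside -0.0883 over those probes. The 3 genes of the club cell list were not confined to lung, as 2 were detected on every forestomach array and 1 on every liver array. Lungs with adipocyte list means of 2.34 to 4.62 had Cyp2a4 at 4.94 to 6.00. The others, at most 1.94 on the adipocyte list, had Cyp2a4 at 4.07 to 5.14, and its relation to that list was not tested.

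In liver, 3 of 52 members were called against Dbp. Their r was at least 0.637 in size, which 5.77% of the members and 5.02% of the 17636 probes well above background on every liver array reached, so the share of members was near that of all probes. Of the 52 members 15 had a positive r, and the median was -0.193, beside -0.019 over those probes. Cyp2g1, an olfactory-type steroid hydroxylase, rose with it (n = 18, r = 0.731, rho = 0.711, adjusted p = 0.0225, permutation test), with r of 0.876, 0.694 and 0.718 within slides. Cyp2d34 (n = 19, r = -0.69, rho = -0.707, adjusted p = 0.0397) and Cyp2j9 (n = 19, r = -0.637, rho = -0.66, adjusted p = 0.0463) fell as it rose. With slide removed, Cyp2d34 (r = -0.417, adjusted p = 0.338) and Cyp2j9 (r = -0.553, adjusted p = 0.169) were no longer called in the permutation test, Cyp2g1 was (r = 0.745, adjusted p = 0.0101), and Cyp2u1, with r = 0.217 before, was called too (r = 0.687, adjusted p = 0.0287). Without the 2 farthest mice r was 0.659, -0.601 and -0.478 and none was called over the fewer mice. In forestomach the arrays formed 2 clusters on the glandular list, and within them 0 of 10 relations were called on r. The closest was Cyp2j6 over the 10 high arrays (r = 0.847, rho = 0.867, without the 2 farthest 0.747), with a permutation p of 0.0043 and an adjusted p of 0.0628. On rho its adjusted p was 0.0414.

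**Figure D4:**
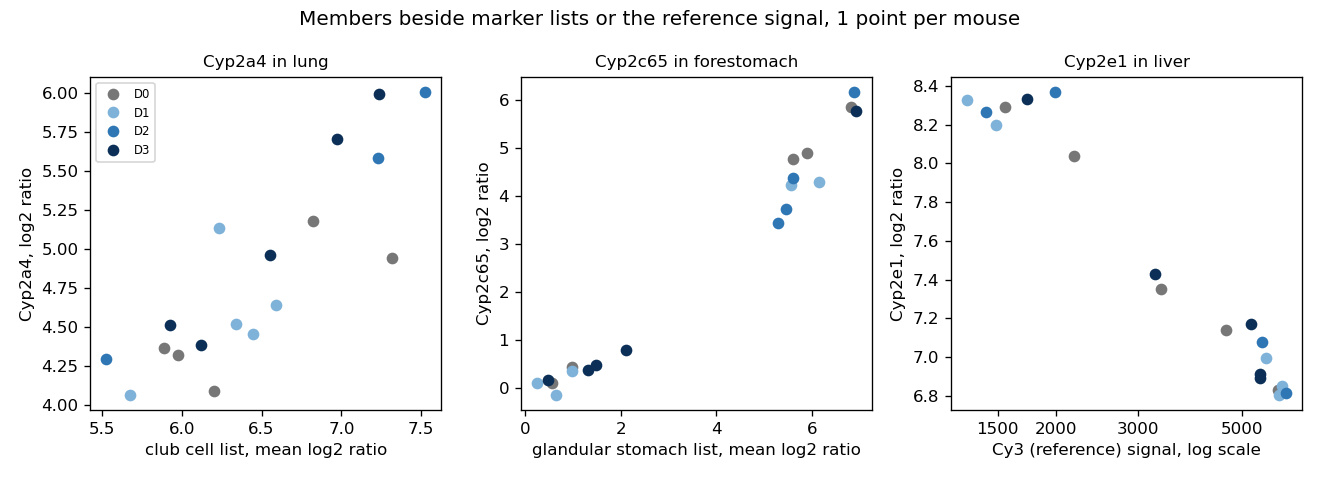
Relations over mice, with 1 point per mouse coloured by dose group. Left, Cyp2a4 against the mean of the club cell genes in lung (log2 ratios, 18 mice). Middle, Cyp2c65 against the mean of the glandular stomach genes in forestomach (log2 ratios, 19 mice), in 2 separate clusters. Right, Cyp2e1 in liver against the Cy3 signal of the reference (log axis, 19 mice), where the 7 arrays of lower Cy3 have the higher ratio.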

How the data were processed

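RNA of 56 tissue samples was hybridised to Agilent 8x60K two-colour arrays and read with Feature Extraction 10.7.3.1 (headers name build mm9). The authors deposited scanner files with the median signal intensity of each spot in both dyes, and a table of log2 ratios of Cy5 over Cy3, made by LOWESS without background subtraction. That table was the basis here. It correlated with the scanner ratios at 0.977 to 0.998 per array, which settled its log2 scale and direction. Spots marked non-uniform were set to missing (342 probe values, 2 of members). Each gene was read from 1 probe per tissue, that of highest mean Cy5, and between tissues from 1 probe over all arrays. The study's methods name MAANOVA, and limma 3.58.1 (lmFit, eBayes, two-sided) in R 4.3.3 was used in its place, with Benjamini-Hochberg adjustment over all probes well above background on at least 3 arrays of the tissue. Calls needed an adjusted p of at most 0.05 and a 1.5-fold change. Correlations used permutation tests with 100000 resamples (SciPy 1.17.1). The fits were tested on simulated data.

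Sequences came from RefSeq (GRCm38.p6). Of all probes, 47.4% were named, and 4 pseudogene probes and 3671 control spots were left out. The number of arrays limits the precision. Tissues of 1 number come from the same mouse, so numbers pair the samples. The correlation of deviations over probes within a mouse was 0.0416 to 0.27 for liver with lung, -0.167 to 0.246 for liver with forestomach and -0.0873 to 0.133 for lung with forestomach. Members named were every one past the limits, the 4 with the largest D3 difference per tissue, the 6 largest in each direction between tissues, the 4 most variable, and fixed lists. Others (those with an unadjusted p of at most 0.05 or groups without overlap, and examples of subfamilies) were chosen after their values were seen. Members and lists were chosen with earlier results of these data known. The array column followed the dose step on 50 of 56 arrays. Alternatives were other normalizations, filters, limits, array weights, slide and mouse blocks and leaving out mice. Cy5 alone, the bounds on scanned signals, mice 17 and 19 left out between tissues, and the scanner normalizations for the spread were added after seeing the data.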

Additional observations from a re-analysis of the deposited data

Results flagged for a closer look

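Of 74 groups of 4 or 5 mice examined for the named members, 8 held a mouse that stood apart from the rest of its group, and chance flags about 1 group in 20. In forestomach, Cyp2c66 and Cyp2c65 of D3 mouse 19 stood at 7.132 and 5.768, where the other 4 mice ranged from 0.1771 to 0.9804 and from 0.1679 to 0.7901. D2 mouse 12 stood apart for Cyp2c66 (7.559, others 4.101 to 4.576) and Cyp2s1 (5.273, others 4.853 to 4.863). The arrays of mice 19 and 12 had glandular stomach means of 6.91 and 6.88. Cyp3a13 of D3 mouse 18 was low at 1.552 (others 2.675 to 3.107).

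In liver, Cyp2c23, an arachidonate epoxygenase, was low in D1 mouse 8 at 4.911 (others 7.37 to 7.737) and in D0 mouse 2 at 7.116 (others 7.516 to 7.618). In lung, Cyp2e1 was low in D1 mouse 9 at 1.995 (others 2.468 to 2.661).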

How the results depend on the processing

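No member was called for dose in any tissue under any alternative run, nor without any single mouse. Between tissues, calls of members lower in lung than in forestomach numbered 14 and became 7 with median centring, 6 with probes detected on every array, 9 with array weights, 3 at 4-fold and 8 to 15 without single mice. Members higher in lung became 7 at 4-fold, and members lower in liver than forestomach 1 with probes detected on every array. A D3 difference between liver and forestomach was called for 0 members, and 0 to 1 without single mice, the 1 being Cyp2s1 without mouse 5. With mouse as a replicate block, the pairing changed none of these counts (48 and 6, 50 and 4, 11 and 14). The D3 difference of Cyp4a12b in lung was -0.0186 without mice 17 and 19, and that of Cyp3a44 in liver ran from -0.41 to 0.00047 over single mice left out, the last without mouse 5. Between liver and forestomach, Cyp4f16, not called at -0.34, was 0.14 with median centring and was called on Cy5 alone (-0.78), and Cyp2b19 -0.28 to 0.0046 over single mice left out (the last without mouse 5), not called. Median centring also ended the calls of Cyp2f2 (liver against lung, -1.52), Cyp2c55 (lung against forestomach, -0.14) and Cyp4f39 (against forestomach, liver -1.09, lung -0.71), and Cyp2d26 was not called without mouse 2 (-1.28). Members correlated with Dbp became 0 without the 2 farthest mice. With slide removed, the calls of Cyp2d34 (-0.417) and Cyp2j9 (-0.553) ended and Cyp2u1 was called (0.687), so 2 were. The SD between mice became 1.93 for forestomach Cyp2s1 and 0.55 for lung Cyp2b10 with median centring, and 1.02 for lung Cyp2a4 and 0.18 for liver Cyp2e1 on Cy5 alone. The cause was not tested. In forestomach 5 members were detected on every array, which limits what could be compared there.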
